A study of Mus musculus with 8 samples.

Results

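The genes described here encode the protein subunits of the cytosolic ribosome. They were taken from the table of coding genes by mouse symbol, as Rpl or Rps followed by a number (with a few letter and number endings) together with Rplp0, Rplp1, Rplp2 and Rpsa, leaving out S6 kinase genes and rows named as pseudogenes. Of 85 matching symbols, 82 had at least 10 counts in at least 4 of the 8 libraries and are the members, out of 29844 rows in the table. They comprise 49 genes of the large subunit and 33 of the small subunit, spread over 19 chromosomes, and all 82 were among the 14059 genes tested. RefSeq lists 80 of them as protein-coding, Rpl6l as a pseudogene and Rps4l as a transcribed pseudogene.

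RNA was sequenced from embryonic mouse cardiomyocytes kept for 4 days on silicone rubber (PDMS, polydimethylsiloxane), in 4 libraries on stiff rubber (about 150 kPa) and 4 on soft rubber (about 10 kPa). All cells came from E18.5 hearts of B6.Cg-Tg(HIST1H2BB/EGFP)1Pa/J mice, so both groups carry the transgene for a fluorescent histone and no group lacks it. Hearts were digested to single cells and grown in Advanced DMEM with 10% FBS. No step that removes other cells of the heart is named, and the labels do not say whether libraries of 1 substrate came from separate cultures or litters. The p-values therefore set the difference between substrates against the scatter of these libraries, and part of that scatter may be technical.

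Cytosolic ribosomes are built in the nucleolus from ribosomal RNA and matched amounts of each ribosomal protein, and unpaired ribosomal proteins are degraded. Most ribosomal protein mRNAs begin with a C followed by a run of pyrimidines, the terminal oligopyrimidine or TOP motif, through which the kinase mTORC1 and the RNA-binding protein LARP1 set their translation. Ribosome production is a known part of the growth of heart muscle cells, and a change in translation of TOP mRNAs need not appear in the mRNA levels measured here.

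RefSeq start regions (300 bases each, build GRCm38.p6) were found for 60 of the 82 members, in 71 windows because 9 members have more than 1. A C followed by at least 4 pyrimidines stood exactly at the annotated start in 13 of the 71 windows (18.3%), against 2.33% of the 13620 windows of tested genes and 2.51% of all 32851 windows. Allowing it to begin up to 5 bases to either side, the shares were 43.7% of member windows, 19.7% of windows of tested genes and 18.3% of all windows. The windows printed here run from 30 bases before the start to 20 bases from it, on the gene's strand, for members whose values are given further on, with the pyrimidine run at the start in capitals.
Rps6 (chr4:86857348-86857397, minus strand): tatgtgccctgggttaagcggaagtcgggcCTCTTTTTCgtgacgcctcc
Rpl14 (chr9:120571487-120571536, plus strand): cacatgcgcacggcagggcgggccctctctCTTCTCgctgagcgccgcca
Rpl28 (chr7:4792935-4792984, plus strand): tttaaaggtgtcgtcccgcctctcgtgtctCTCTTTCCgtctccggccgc
Rplp2 (chr7:141447621-141447670, plus strand): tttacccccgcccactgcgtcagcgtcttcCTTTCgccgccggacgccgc
Rps10 (chr17:27635225-27635274, minus strand): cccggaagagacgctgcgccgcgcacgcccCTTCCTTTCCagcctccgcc
Rps27 (chr3:90213629-90213678, minus strand): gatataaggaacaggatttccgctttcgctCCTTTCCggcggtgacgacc

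The letters CCGGAAG, the core that ETS-family factors such as GABP recognise, stood on either strand in 36.6% of member windows, against 16.3% of windows of tested genes and 8.86% of all windows. ATGGCG, the core of the YY1 motif, stood in 31.0% of member windows, against 14.1% and 8.93%. GGGCGG, the core of the SP1 motif, was at 62.0% of member windows and 61.3% of windows of tested genes. The letters TATAAA, the TATA box, placed 40 to 16 bases before the start, were in 1.41% of member windows and 1.13% of windows of tested genes. A pair of members whose window holds CCGGAAG near the start is printed with those letters, or their reverse complement, in capitals.
Rpl11 (chr4:136053374-136053423, minus strand): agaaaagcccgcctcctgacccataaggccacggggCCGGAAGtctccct
Rps7 (chr12:28635934-28635983, minus strand): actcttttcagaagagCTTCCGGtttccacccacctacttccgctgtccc

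The comparison of stiff with soft asks whether substrate stiffness goes with the mRNA levels of the ribosome's proteins. No ribosomal protein gene passed the test: 0 of 82 members had an adjusted p under 0.05 in edgeR's quasi-likelihood test, beside 0 of all 14059 genes (0%), and no adjusted p lay below 0.99997. A single member, Rplp1 (1.22% of members), had an unadjusted p under 0.05, against 130 of all genes (0.925%), or 0.484% counting only genes lower on stiff. With no difference in any gene, a share of about 0.05 would fall under that limit, so the p-values of all genes ran high. The reason was not tested, and the absence of calls is weak evidence that members do not differ. Of the estimates, 63 of 82 (76.8%) were lower on stiff, against 51.9% of all genes tested. The median log2 fold change (stiff over soft) of the members was -0.09 (quartiles -0.21 and -0.01), against -0.01 for all genes. The large subunit had 37 of 49 lower estimates and a median of -0.11, and the small subunit 26 of 33 and a median of -0.06. These counts describe estimates, none of which passed the test.

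For the members with more counts, this lean rested on 1 library. Among the 40 members at a mean of 32 CPM or more (CPM, the count relative to its TMM-scaled library size), 36 estimates (90.0%) were lower on stiff, against 46.9% of the 6192 genes at that level. Without the fourth stiff library, 20 of these 40 were lower, against 50.2% of genes at that level, and over all members 48 of 82 were lower, against 53% of all genes, with a median of -0.06. Without the fourth soft library, 32 of the 40 (against 48.1% of genes at that level) and 54 of the 82 (against 49.4% of all genes) were lower, with a median of -0.05. Of the 42 members below 32 CPM, 27 (64.3%) were lower, against 55.9% of genes at that level.

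The precision limits what these libraries could show. The 95% interval of the fold change reached a median of 1.34-fold either way around the estimate for the 40 members at 32 CPM or more and 1.69-fold for the 42 below. It lay wholly within 1.5-fold higher or lower for 28 members and within 2-fold for 62.

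**Figure D1:**
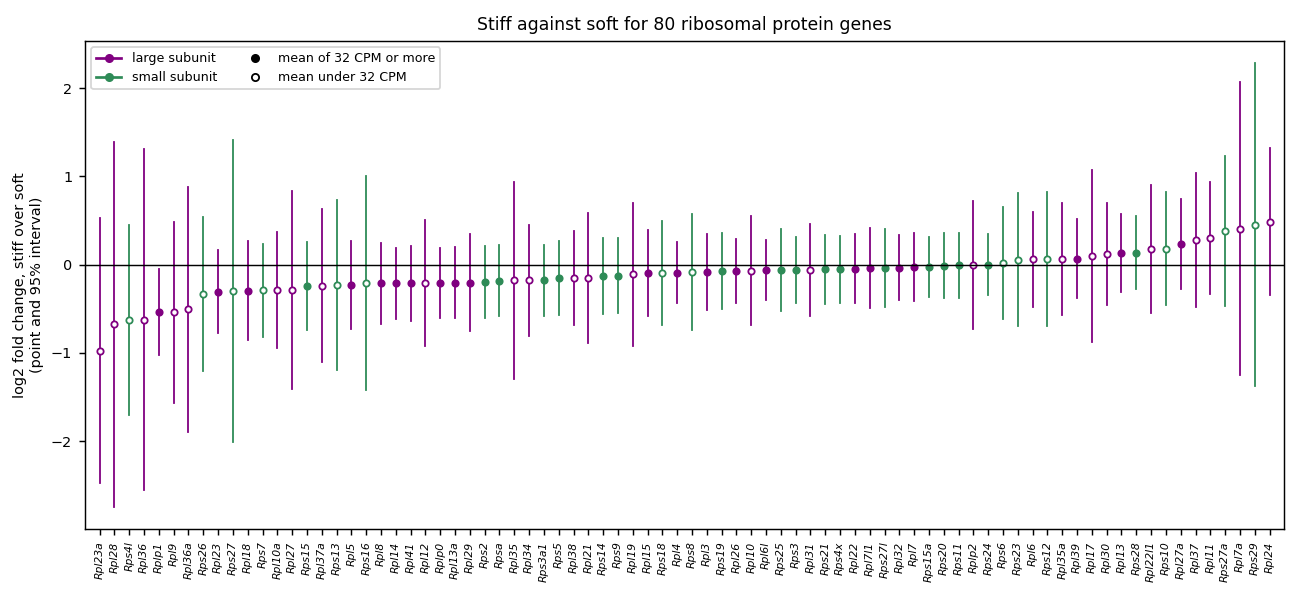
Log2 fold change, stiff over soft, of 80 of the 82 members with its unadjusted 95% interval, ordered by estimate (purple large subunit, green small subunit, filled points for a mean of 32 CPM or more). The estimates run between -0.98 (Rpl23a) and 0.49 (Rpl24), 61 of these 80 lie below 0, and the interval of Rplp1 alone lies wholly on one side of 0.

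The ribosome's stalk, which recruits elongation factors, is made of Rplp0, which anchors it to ribosomal RNA, and of dimers of the acidic proteins Rplp1 and Rplp2. Rplp1 (chr9:61913283-61914510) had 73.7, 75.9, 115 and 79.7 CPM in the stiff libraries, against 106, 82.3, 133 and 180 CPM in the soft libraries. The groups overlapped, since the third stiff library exceeded the lower pair of soft libraries. The means were 86.1 ± 19.5 CPM on stiff and 125 ± 41.9 CPM on soft (SD, n = 4 each), a log2 fold change of -0.54 (SE 0.23, 95% interval -1.03 to -0.06), with an unadjusted p of 0.0312 in edgeR. Without the fourth soft library, the highest for this gene, the estimate was -0.31 with an unadjusted p of 0.158. With the library number as a block it was -0.50 with an unadjusted p of 0.00463 in edgeR, where 360 of all genes (2.56%) passed the same limit and none passed after adjustment.

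The other 2 stalk genes gave smaller estimates. Rplp0 had 295, 275, 326 and 207 CPM on stiff, against 299, 248, 346 and 377 CPM on soft. Both groups covered much the same range, and the log2 fold change was -0.20 (SE 0.19). Rplp2 averaged 10.9 ± 3.60 CPM on stiff and 11.0 ± 2.55 CPM on soft (SD, n = 4 each), and its log2 fold change was -0.01 (SE 0.34). Whether Rplp1 differs from its partners was not tested.

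**Figure D2:**
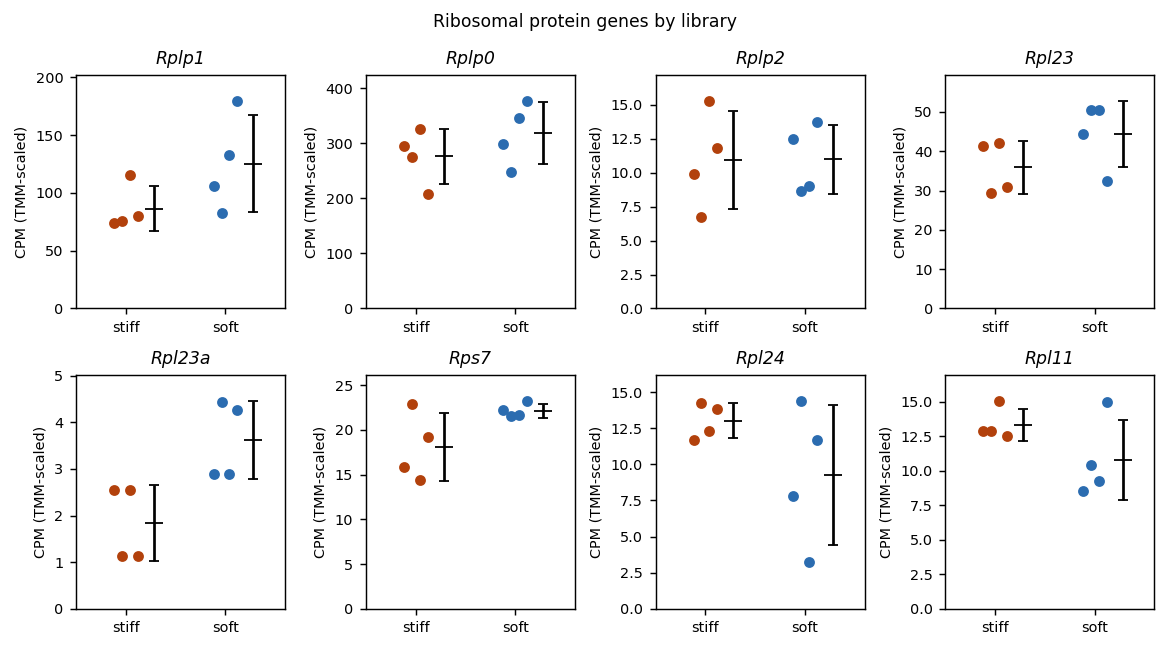
TMM-scaled CPM of 8 members in each stiff and soft library (points), with the mean and SD of each group of 4 libraries beside them (bar). Groups overlap in 7 of the 8 panels, Rpl23a being the exception.

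Among large-subunit genes, Rpl23, whose protein lies at the face that joins the small subunit and is bound by the anti-association factor eIF6, had 41.4, 29.4, 42.0 and 30.8 CPM on stiff, against 44.4, 50.4, 50.4 and 32.4 CPM on soft. Apart from the fourth, the soft libraries lay above all stiff libraries, and the log2 fold change was -0.31 (SE 0.22). Rpl24, which forms a bridge between the subunits and is mutated in the mouse Belly spot and tail strain, gave the highest estimate of any member, 0.49 (SE 0.39). It had 11.7, 14.2, 12.3 and 13.8 CPM on stiff, against 7.77, 14.4, 3.24 and 11.7 CPM on soft. The stiff libraries lay close together and the soft ones ranged 4.44-fold. Rpl14 averaged 80.8 ± 14.2 CPM on stiff and 93.5 ± 18.0 CPM on soft, and Rpl18 averaged 43.1 ± 10.6 CPM and 52.8 ± 18.9 CPM (SD, n = 4 each), with log2 fold changes of -0.21 and -0.29. Without the fourth soft library these estimates were -0.11 for both genes, and with its copies summed Rpl14 was at -0.07.

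Rpl5 and Rpl11 form a particle with 5S ribosomal RNA and, when free of the ribosome, bind Mdm2, the ligase that degrades p53. Rpl5 had 38.9, 46.7, 28.8 and 62.1 CPM on stiff, against 62.6, 52.3, 51.8 and 40.6 CPM on soft. Rpl11 had 12.9, 12.9, 15.1 and 12.5 CPM on stiff, against 8.53, 10.4, 9.25 and 14.98 CPM on soft. Their estimates had opposite signs, -0.23 (SE 0.24) for Rpl5 and 0.30 (SE 0.30) for Rpl11, and both intervals include 0. Rpl13a, which in human cells also takes part in repression of inflammatory mRNAs, was at 285 ± 45.8 CPM on stiff and 328 ± 66.2 CPM on soft (SD, n = 4 each), a log2 fold change of -0.20. Rpl38, whose loss in mouse embryos alters the translation of Hox mRNAs, had a log2 fold change of -0.15 (SE 0.25).

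Among the protein-coding genes of the small subunit, Rps7 had the smallest p. It had 15.8, 22.9, 14.4 and 19.2 CPM on stiff, against 22.2, 21.6, 21.6 and 23.3 CPM on soft. The soft libraries lay within 1.08-fold of each other and 3 of the 4 stiff libraries lay below all of them, with a log2 fold change of -0.29 (SE 0.25, unadjusted p 0.258 in edgeR). Rps6, the main substrate of S6 kinase downstream of mTORC1, had 15.7, 15.9, 22.0 and 26.2 CPM on stiff, against 12.7, 29.8, 17.7 and 18.8 CPM on soft. The values overlapped and the log2 fold change was 0.02 (SE 0.30). Rps3, which lines the channel where mRNA enters, was at 641 ± 116 CPM on stiff and 669 ± 64.2 CPM on soft (SD, n = 4 each), a log2 fold change of -0.06. Rps27a, made as a fusion with ubiquitin, gave an estimate of 0.38 (SE 0.40), and Rpsa, also known as the laminin receptor precursor, one of -0.18 (SE 0.19).

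Mutations in a group of ribosomal protein genes cause Diamond-Blackfan anaemia in people, in which red cell production fails and heart malformations can occur. Of 16 such genes, 0 passed the test, 11 estimates were lower on stiff and the median log2 fold change was -0.06. Rps19, the gene most often mutated, had 108, 100, 125 and 72.1 CPM on stiff, against 91.7, 85.6, 135 and 115 CPM on soft. Its groups overlapped, with a log2 fold change of -0.07 (SE 0.20). Rps24 was at 392 ± 53.4 CPM on stiff and 393 ± 32.9 CPM on soft (SD, n = 4 each), for a log2 fold change of -0.00 (SE 0.16, 95% interval -0.35 to 0.34). Others of the group ran between -0.33 (Rps26) and 0.45 (Rps29), with Rpl35a at 0.07, Rpl15 at -0.10, Rpl26 at -0.07, Rps28 at 0.14, Rpl27 at -0.29, Rpl31 at -0.06, Rps27 at -0.30 and Rps10 at 0.18 on the log2 scale.

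Single libraries stood out across many members. The members' share of all coding counts was 0.942, 0.965, 0.978 and 0.726% in the stiff libraries, against 0.938, 0.815, 1.09 and 1.01% in the soft libraries. The fourth stiff library held the smallest share and the second soft library the next smallest, and the groups overlapped. The fourth stiff library was the lowest of the 8 for 30 of the 82 members, among them 24 of the 40 at 32 CPM or more, and the highest for none. The fourth soft library was the highest for 29 members, 14 of them among the 40, and the lowest for 4. The second soft library was the lowest for 20 members, and the second stiff library the highest for 16, 11 of them among the 40. In the fourth stiff library the median member lay 0.25 below its own mean over libraries on the log2 scale. The median of all genes lay 0.03 above there, and it lay above in every library (0.0032 to 0.0565).

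Rpl4, which lines the exit tunnel of the growing peptide, shows the pattern. It had 1099, 1178, 1030 and 870 CPM on stiff, against 1164, 1060, 1180 and 1044 CPM on soft, with the fourth stiff library lowest. Other measures of that library also stood at an end of the stiff range. Its coding total of 34693673 was the highest of the 8. Its summed CPM over 14 cardiomyocyte markers was 38750, against 27550 to 32580 in the other stiff libraries, and that of the other TOP mRNA genes was 8707, against 11230 to 13150. Mitochondrial ribosomal protein genes summed to 2064 CPM there, inside the 1972 to 2156 CPM of the stiff group. In the fourth soft library the cardiomyocyte markers summed to 46760 CPM, against 25940 to 28030 in the other soft libraries. The part of cell makeup or depth in these patterns was not tested. In such bulk RNA, fewer cells of a type and less RNA per cell cannot be told apart.

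**Figure D3:**
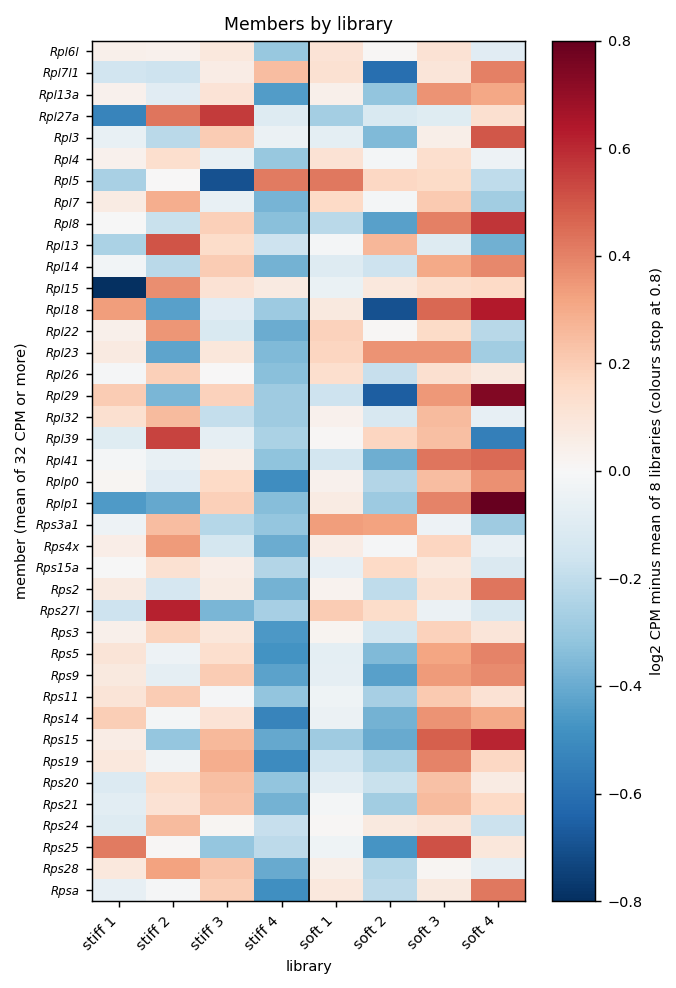
Log2 CPM of each of the 40 members at 32 CPM or more, minus its mean over the 8 libraries, with stiff libraries left of soft libraries (colours stop at 0.8 either way). The fourth stiff library is lowest for 24 of the 40, and the fourth soft library highest for 14.

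The ratio of large-subunit to small-subunit counts was 1.10, 1.10, 1.08 and 1.19 in the stiff libraries, against 1.17, 1.15, 1.12 and 1.11 in the soft libraries. The stiff libraries included both the lowest and the highest ratio. The means were 1.11 ± 0.0484 on stiff and 1.14 ± 0.0284 on soft (SD, n = 4 each).

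Markers of other heart cells were present in every library, as a digest without a named purification allows. All 14 cardiomyocyte markers were tested, and 0 of them passed. Their summed level ran between 27550 and 38750 CPM on stiff and between 25940 and 46760 CPM on soft. Fibroblast markers summed to 12840 to 17510 CPM on stiff and 13140 to 21350 CPM on soft. Of the 10 mural markers, smooth muscle and pericyte genes, all had lower estimates on stiff (median -0.20, none called), with sums of 2228 to 3350 CPM on stiff and 2444 to 3920 CPM on soft, and their part in the members' values was not tested. Endothelial, epicardial, leukocyte and cycling lists had medians between -0.13 and 0.09 and no called gene. Coding totals ran between 27924797 and 34693673 counts on stiff and between 27646471 and 30701041 on soft.

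Some ribosomal protein genes have a related second gene, whose product in some cases can take the same place in the ribosome. Of 13 tested genes in such pairs (12 members and Rpl36al), 0 passed and 10 had lower estimates on stiff and a median of -0.05. Rpl22l1, the partner of Rpl22 and repressed by it in mouse, took 10.4 ± 1.37% of the counts of the pair on stiff and 8.87 ± 3.71% on soft (SD, n = 4 each). The means differed by less than the SD of the soft libraries. Rpl7l1, a factor of large-subunit assembly related to Rpl7, took 12.7 ± 3.68% of its pair on stiff and 12.5 ± 4.09% on soft. These shares are of reads assigned to the genes, uncorrected for length.

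Rps27l, a gene that p53 induces, had 112, 192, 97.6 and 104 CPM on stiff, against 145, 139, 121 and 115 CPM on soft. The second stiff library alone exceeded the soft range, and the log2 fold change was -0.04 (SE 0.21). Rps4x, the X-linked gene, was at 362 ± 78.1 CPM on stiff and 375 ± 26.7 CPM on soft, and Rps4l held 2.91% of the counts of that pair over the 8 libraries. Rps4l had 6.98, 6.03, 10.2 and 11.0 CPM on stiff, against 7.28, 3.24, 16.4 and 26.1 CPM on soft, with the soft libraries 8.05-fold apart and an estimate of -0.63 (SE 0.50), or -0.055 without the fourth soft library. Rpl3l, the muscle-specific partner of Rpl3, fell short of the count minimum with 0, 0, 0 and 39 counts on stiff, against 0, 0, 9 and 15 on soft. Rpl39l, known from mouse testis, had 0, 4, 80 and 14 counts on stiff, against 0, 0, 30 and 0 on soft. Rpl10l, also a testis gene, had 0 counts in all 8 libraries. For the remaining partners, the log2 fold changes were -0.08 for Rpl3, -0.03 for Rpl7, -0.07 for Rpl10, -0.05 for Rpl22, 0.07 for Rpl39, -0.51 for Rpl36a and 0.11 for Rpl36al.

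The members just above the count minimum were Rpl36, Rpl28, Rps27 and Rps29, with mean counts between 55.0 and 74.0. Rpl28 had 61, 69, 7 and 43 counts on stiff, against 30, 69, 50 and 132 on soft, and an estimate of -0.68 (SE 0.98). Rps29 had 21, 47, 175 and 114 counts on stiff, against 48, 19, 68 and 100 on soft, and an estimate of 0.45 (SE 0.87). Rpl7a, with 80, 154, 12 and 177 counts on stiff, against 117, 79, 40 and 66 on soft, had an estimate of 0.41 (SE 0.79). The counts within a group ranged widely, so these outer estimates carry wide intervals. In all, 17 members had a mean under 10 CPM.

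Many ribosomal protein genes have near-identical processed copies in the genome, and reads from a member can be assigned to such a copy. The coding table held 85 rows named as copies of members (an ending in -ps, or Rps27rt), of which 57 had counts, and 39 of the 82 members had at least 1. Copies held 14.9% of the counts of members and copies together. For 12 members they held over 50%, and the values of these members are uncertain for that reason. Only copies named after their member were counted, so other members may also have lost reads to copies with other names, which was not tested. For example, Rpl28 averaged 1.94 CPM over the 8 libraries with no counts in its named copy, against 1078 CPM for Rpl4. Rps27rt (chr9:114982366-114982739), which RefSeq lists as protein-coding, held 98.9% of its family with Rps27. Copies held 98.1% for Rpl23a, 97.0% for Rpl9, 95.2% for Rpl17, 94.0% for Rpl36a, 93.4% for Rps26, 76.4% for Rps12, 75.0% for Rpl14, 73.0% for Rpsa, 67.3% each for Rps10 and Rpl7a, and 52.3% for Rpl10. RefSeq gives a pseudogene type to 19 of the 20 copies with the most counts. The uncertain sets also include Rpl6l, at 86.0% of its pair with Rpl6.

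**Figure D4:**
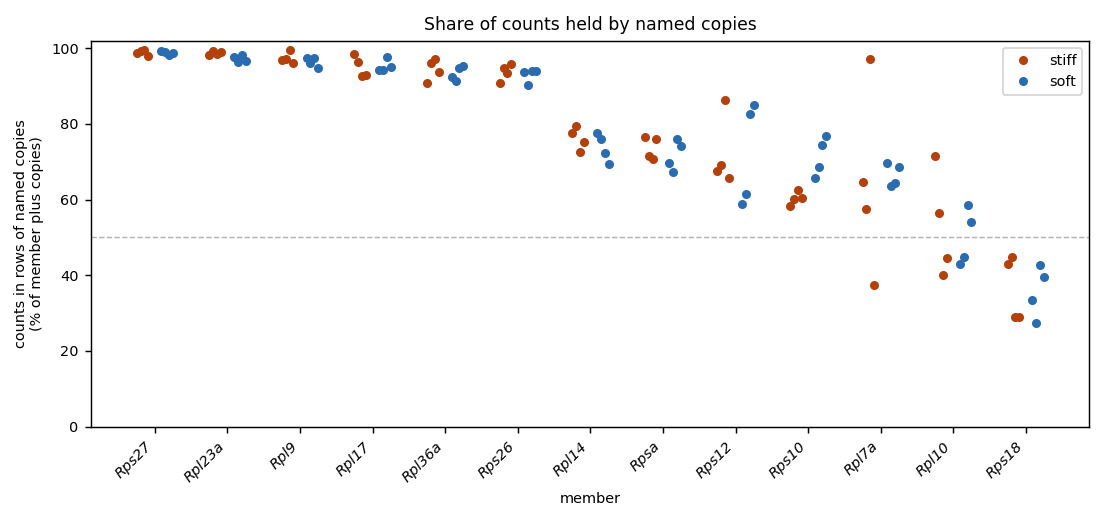
Share of the counts of a member and its named copies that fell in the copies (vertical axis, percent) in each stiff and soft library, for 13 members. The dashed line marks 50%, and the 2 groups separate for Rps10, at 58.4 to 62.6% on stiff and 65.7 to 76.7% on soft.

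The estimate of a member could depend on which row took the reads. Rpl23a, which lies at the exit of the peptide tunnel, alone among the members had libraries that did not overlap between substrates (1.22% of members), against 181 of all genes (1.29%), or 0.747% counting only genes lower on stiff. It had 2.54, 1.12, 2.55 and 1.14 CPM on stiff, against 2.90, 4.43, 2.88 and 4.26 CPM on soft, and the lowest estimate of any member, -0.98 (SE 0.71, unadjusted p 0.188 in edgeR). Its copy Rpl23a-ps3 had 3787, 4722, 5332 and 3527 counts on stiff, against 3631, 3351, 4730 and 3839 on soft. With the copies summed into the member, the family was at 136, 162, 162 and 104 CPM on stiff, against 122, 122, 171 and 131 CPM on soft, and the log2 fold change was 0.05 (SE 0.19). The summed libraries overlapped.

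Rps10 went the other way. Its own row had an estimate of 0.18 (SE 0.30) and its copy Rps10-ps1 one of -0.61 (SE 0.32). The copy's share was 58.4, 60.1, 62.6 and 60.5% on stiff, against 65.7, 68.6, 74.5 and 76.7% on soft, and the summed family had an estimate of -0.34. This separation of shares was picked after the values were seen, and none of the rows was called. For Rpl9 the summed estimate was -0.10, against -0.54 for the row alone. For Rpl36a it was -0.08, against -0.51, and for Rps27 it was -0.12, against -0.30. For Rps26 it was -0.32, against -0.33, and for Rps12 it was -0.29, against 0.06. In the row of Rpl9, the third stiff library had 1.41 CPM and the other stiff libraries 8.09 to 9.09 CPM.

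Genes related to the ribosome gave no called gene in any list. Of 18 tested genes with other TOP mRNAs, 11 had lower estimates on stiff, with a median log2 fold change of -0.05. Eef1a1, which brings aminoacyl-tRNA to the ribosome, was at 5517 ± 1131 CPM on stiff and 5762 ± 638 CPM on soft, and Eef2, which moves the ribosome along the mRNA, was at 1978 ± 454 CPM and 2226 ± 354 CPM (SD, n = 4 each). Tpt1 had 9.87, 8.68, 15.1 and 12.9 CPM on stiff, against 9.25, 22.0, 14.2 and 27.4 CPM on soft, with a log2 fold change of -0.65 (SE 0.35). Rack1, a scaffold protein of the small subunit, was at 1041 ± 157 CPM on stiff and 1159 ± 152 CPM on soft, a log2 fold change of -0.16. Fau, which encodes Rps30 fused to a ubiquitin-like protein, had 28, 13, 42 and 121 counts on stiff, against 121, 71, 93 and 63 on soft. Rows named as copies were counted for the members alone. Whether reads of genes such as Tpt1 and Fau were assigned to copies was not tested.

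**Figure D5:**
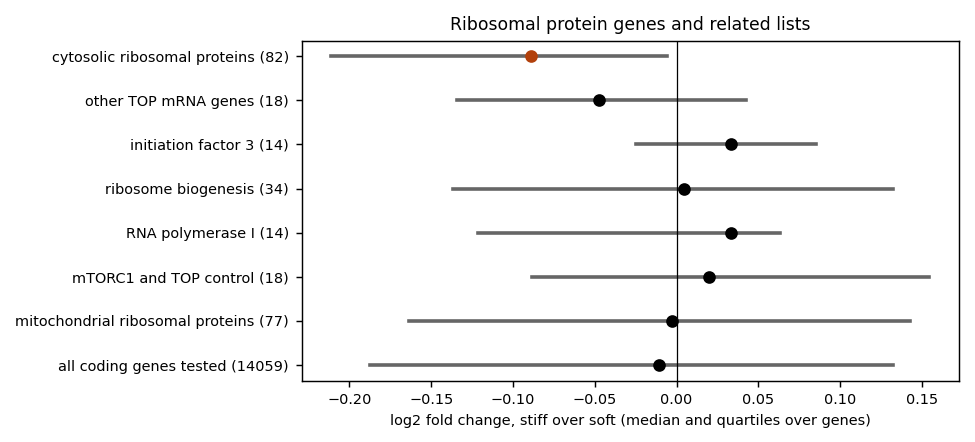
Median log2 fold change, stiff over soft (points), with quartiles (lines), of the ribosomal protein genes and related lists, with the number of tested genes in brackets. The members' median is -0.09, that of the mitochondrial ribosomal proteins -0.00 and that of all coding genes -0.01.

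The subunits of initiation factor 3, which prepares the small subunit for an mRNA, had lower estimates for 6 of 14 genes, with a median of 0.03. The genes of ribosome assembly had lower estimates for 17 of 34, with a median of 0.00. Among them, Ncl, nucleolin, was at 290 ± 53.9 CPM on stiff and 225 ± 21.1 CPM on soft (SD, n = 4 each), a log2 fold change of 0.36 (SE 0.17, unadjusted p 0.0511 in edgeR). Rrs1, needed for assembly of the 5S particle in yeast, was at 9.85 ± 4.04 CPM on stiff and 16.7 ± 5.45 CPM on soft, a log2 fold change of -0.76 (SE 0.37). Mrto4, an assembly factor related to Rplp0, had an estimate of -0.56 (SE 0.32).

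Of the 4 tested chaperones that bind single ribosomal proteins, 3 had higher estimates, led by Tsr2, the chaperone of Rps26, at 0.52 (SE 0.33). Genes of RNA polymerase I, which makes ribosomal RNA, had lower estimates for 6 of 14, with a median of 0.03. Genes of mTORC1 and of the control of TOP mRNAs had lower estimates for 9 of 18 and a median of 0.02, with Akt1s1, an inhibitor of mTORC1, at -0.36 (SE 0.26) and the S6 kinase gene Rps6kb1 at 0.16 (SE 0.17). Of 6 genes of the p53 response, 5 had lower estimates, with a median of -0.11. Cdkn1a, the p53 target that stops the cell cycle, was at -0.25 (SE 0.20) and Mdm2 at -0.17 (SE 0.19). Mitochondrial ribosomal protein genes, which serve a separate ribosome, had lower estimates for 39 of 77, with a median of -0.00.

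The members can also be divided by the letters of their start regions. Of the 13 with a pyrimidine run at the annotated start, 10 had lower estimates on stiff and a median of -0.10. Of the 47 others with a window, 35 were lower, with a median of -0.09. Of the 25 members with CCGGAAG, 18 were lower (median -0.07), and of the 35 without it 27 were lower (median -0.12).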

How the data were processed

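The authors deposited raw counts, whole numbers of reads per gene and library, for coding genes, and this table alone was used. Per the submitters' processing notes, the tools were TopHat2 2.0.14, TopHat, Bowtie2, HTSeq 0.6.1, FastQC 0.11.2, Cufflinks, edgeR and DESeq2, on build GRCm38. Their roles are not stated. Strand handling is not given in the sources used here, and overlapping or antisense genes may share reads, and reads of near-identical copies may be split. Groups come from the substrate label. The tests ran in edgeR 4.0.16 under R 4.3.3 (filterByExpr at a minimum count of 10 and total of 15, TMM, robust quasi-likelihood F test, Benjamini-Hochberg over 14059 genes), with limma 3.58.1 and DESeq2 1.42.0 as alternatives. Intervals are unadjusted. Their width rests on the spread between these libraries, which the fit moderates for each gene towards the trend of all genes. The fit was tested on simulated counts.

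Members, lists and the rule for named genes were chosen with earlier results of these data known. Named are called members, the 10 smallest p-values, the 3 highest and 3 lowest estimates, members of the role lists, those nearest the count minimum and a few genes of each related list. A rule by level per coding length could not be applied, because transcript lengths were not used here, and Rps3, Rpl4 and Rps10-ps1 were named after their values were seen. Alternatives were other scaling factors, filters and tools, each library left out, copies summed and a block by library number. That number is the last digit of the library code, and the labels do not say what it marks. Deviations from group means of same-numbered libraries correlated at 0.10, 0.18, 0.13 and 0.31. Libraries with other numbers also reached 0.13 (soft 2 with stiff 1) and 0.11 (soft 1 with stiff 2), and most were negative, down to -0.23 (soft 4 with stiff 2). Blocked values are given where they end a call, move a count by over 1.5 times or bear on Rplp1.
Chi-square per degree of freedom between libraries ran from 45.9 to 233, so no library was a repeat of another. Same-numbered libraries gave 47.4, 45.9, 56.0 and 118 for numbers 1 to 4. Soft 1, soft 2 and soft 3 were each closest to the stiff library of their own number, while soft 4 was closest to soft 3 (113). The lowest value between libraries of 1 substrate was 57.0 (soft 1 with soft 2), and soft 1 with stiff 2 gave 52.2. The main fit took no account of the library number. If that number marks a shared culture or litter, the main p-values and intervals leave out that pairing. Chromosome positions and start regions are RefSeq's on GRCm38.p6. Start regions for 22 members were not analysed here. Some items are not reported here.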

Additional observations from a re-analysis of the deposited data

Results flagged for a closer look

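In 10 of 166 groups of 4 libraries (164 for the 82 members on each of the 2 substrates, and 2 for the members' summed CPM), 1 library stood far from the other libraries of its substrate by Dixon's test, and chance gives about 1 in 20. Of these, 9 are given here. On stiff, the third library had 115 CPM of Rplp1 (the others 73.7 to 79.7), 1.41 CPM of Rpl9 (8.09 to 9.09) and 15.1 CPM of Rpl11 (12.5 to 12.9). The fourth stiff library had 21.4 CPM of Rpl10a (14.3 to 14.9) and 151 CPM of Rpl6l (191 to 198). The second stiff library had 6.20 CPM of Rpl35 (2.93 to 3.36) and 192 CPM of Rps27l (97.6 to 112), and the first 2.93 CPM of Rps16 (3.87 to 4.06). On soft, the first library had 12.3 CPM of Rps27a (5.63 to 6.76).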

How the results depend on the processing

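In every one of the 18 settings 0 members were called, and the lowest adjusted p of any member was 0.9996. Leaving out 1 library at a time, the median log2 fold change of the members ran between -0.15 and -0.05, lower estimates between 48 and 64 of 82, and those among the 40 members at 32 CPM or more between 20 and 37. The lowest count, 20, was without the fourth stiff library. With the replicate block 0 genes were called, and genes at an unadjusted p under 0.05 numbered 360 of 14059, against 130 without it and 180 in limma-voom. Over 17351 genes with no filter there were 473 in edgeR and 322 in DESeq2. Lower estimates numbered 65 of 82 with the block, which ended no call.

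Of 42 named members, 18 kept their sign in every setting. The estimates that turned in sign follow, and the cause was not tested. Rplp2 was 0.0046 with RLE factors, 0.0065 with totals alone and 0.0050 in DESeq2. Rps24 was 0.0061 with RLE, 0.0012 with factors made without members, 0.0020 without a filter, 0.0001 at 1 CPM and 0.0063 in DESeq2. Rpl7a was -0.115 in limma-voom and -0.0051 with the replicate block. With copies summed, Rpl23a was 0.0454, Rps6 -0.0347 and Rps10 -0.3449. Without a turn in sign, Rps4l moved to -0.26 in limma-voom and -0.29 with the block.

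Leaving out 1 library at a time, the estimate ran between -0.25 and 0.12 for Rpl10, -0.25 and 0.10 for Rpl15, -0.19 and 0.0634 for Rpl22, -0.0776 and 0.47 for Rpl22l1, -0.14 and 0.0211 for Rpl26, -0.70 and 0.0115 for Rpl27, -0.20 and 0.10 for Rpl3, -0.15 and 0.0436 for Rpl31, -0.0945 and 0.26 for Rpl35a, -0.23 and 0.0141 for Rpl38, -0.13 and 0.16 for Rpl39, -0.14 and 0.0759 for Rpl7, -0.20 and 0.11 for Rpl7l1, -0.21 and 0.17 for Rplp2, -0.19 and 0.0595 for Rps19, -0.0932 and 0.0538 for Rps24, -0.52 and 0.16 for Rps27, -0.31 and 0.0679 for Rps27l, -0.0743 and 0.82 for Rps29, -0.19 and 0.0546 for Rps4x, and -0.15 and 0.29 for Rps6.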
